A study of Mus musculus with 2 samples.

Results

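The 39 synaptic, transmitter and ion channel genes described here were chosen by symbol, from a list of genes known for work at the mature synapse. All 39 were found, by Ensembl identifier, among the 43346 Ensembl gene rows of both gene tables. They fall into 5 genes of transmitter synthesis and vesicle loading, 6 of the presynaptic release machinery, 10 receptor subunits, 6 scaffold and kinase genes, 5 adhesion genes, 5 sodium and calcium channel genes, and 2 chloride transporters. Total RNA was sequenced from whole forebrain of healthy B6NCrl mouse embryos at 10.5 days, with no treatment or mutation named and both sexes pooled. The 2 libraries formed a single group, replicate 1 from 69 embryos and replicate 2 from 51, each from 10 ng of RNA. Levels are in TPM, which corrects reads for gene length and scales each library to the same sum, and are given as replicate 1 and then replicate 2. Means carry the SD over both libraries (n = 2), and no test was possible with a single group of this size.

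At a working synapse, an enzyme or transporter supplies transmitter to vesicles, SNARE proteins fuse the vesicles with the presynaptic membrane, and receptor channels on the other cell respond. Neurexins and neuroligins bridge the cleft, while scaffold proteins of the PSD-95 and Shank families hold receptors in place. Voltage-gated sodium channels carry action potentials, calcium channels trigger release and shape firing, and the balance of chloride importer and exporter sets whether GABA excites or inhibits. In the mouse forebrain at this stage most cells are dividing neuroepithelial progenitors, the earliest neurons have just left the cycle, and synapses have not yet formed.

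Sequencing depth was 43021202 expected counts (estimated reads per gene) for replicate 1 and 39215064 for replicate 2, and the 39 genes took 13647 and 10839 of them. Of the cell type markers, all 12 neuron markers and all 8 progenitor markers reached 1 TPM in both libraries. The progenitor marker Vim stood at 768 and 762 TPM, against 221 and 175 TPM for the neuron marker Tubb3. These were the highest of their lists, whose medians were 69.2 and 68.5 TPM for progenitor and 24.0 and 15.9 TPM for neuron markers. The dissected forebrain also held other tissue: all 6 head mesenchyme, 6 endothelium, 5 erythroid, 6 macrophage and 6 surface epithelium markers reached 1 TPM in both libraries. Their median levels were 55.3 and 58.1 TPM for head mesenchyme and 26.5 and 22.8 TPM for surface epithelium. Endothelial markers had medians of 17.0 and 17.2 TPM, macrophage markers 8.0 and 6.7 TPM and erythroid markers 3630 and 2645 TPM. Of the peripheral sensory neuron markers 4 of 8 reached 1 TPM in both libraries. The highest value of that list was 11.3 TPM in replicate 1 and 9.79 TPM in replicate 2, and Prph and Avil were under 1 TPM in both. The glial and neural crest list had 3 of 8 and the muscle list 1 of 6. The highest glial and neural crest values were 9.18 and 9.96 TPM, and Gfap stood at 0.07 and 0.08 TPM. The part that these cells had in the members' levels was not tested.

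The release machinery, adhesion genes and channels were measurable, all but Vamp2 under 10 TPM in both libraries, whereas most receptor subunits lay near or below 1 TPM. At 1 TPM or more in both libraries, the limit used here for detection, 28 of the 39 members were detected. The same limit was met by 32.4% of all Ensembl genes and by 57.3% of the 21474 protein-coding genes. All 6 presynaptic, all 5 adhesion and all 5 channel genes were detected, along with 3 of 5 transmitter genes, 4 of 6 scaffold genes, 1 of 2 chloride transporters and 4 of 10 receptor subunits. Of the 11 undetected members, 9 were under 1 TPM in both libraries, and 2, Gria2 and Grin1, passed that level in replicate 1 alone. Of the 28 detected members, 26 stayed under 10 TPM in both libraries, and the share of all genes doing so was not counted. Many genes lie in that range, since the mean of the member Dlg4, 11.2 TPM, was above 63.0% of protein-coding genes. In bulk tissue, fewer cells of a type and less RNA per cell cannot be told apart as sources of a low level. The median over all 39 members was 2.50 and 2.19 TPM, against 3.27 and 3.16 TPM over all protein-coding genes.

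**Figure D1:**
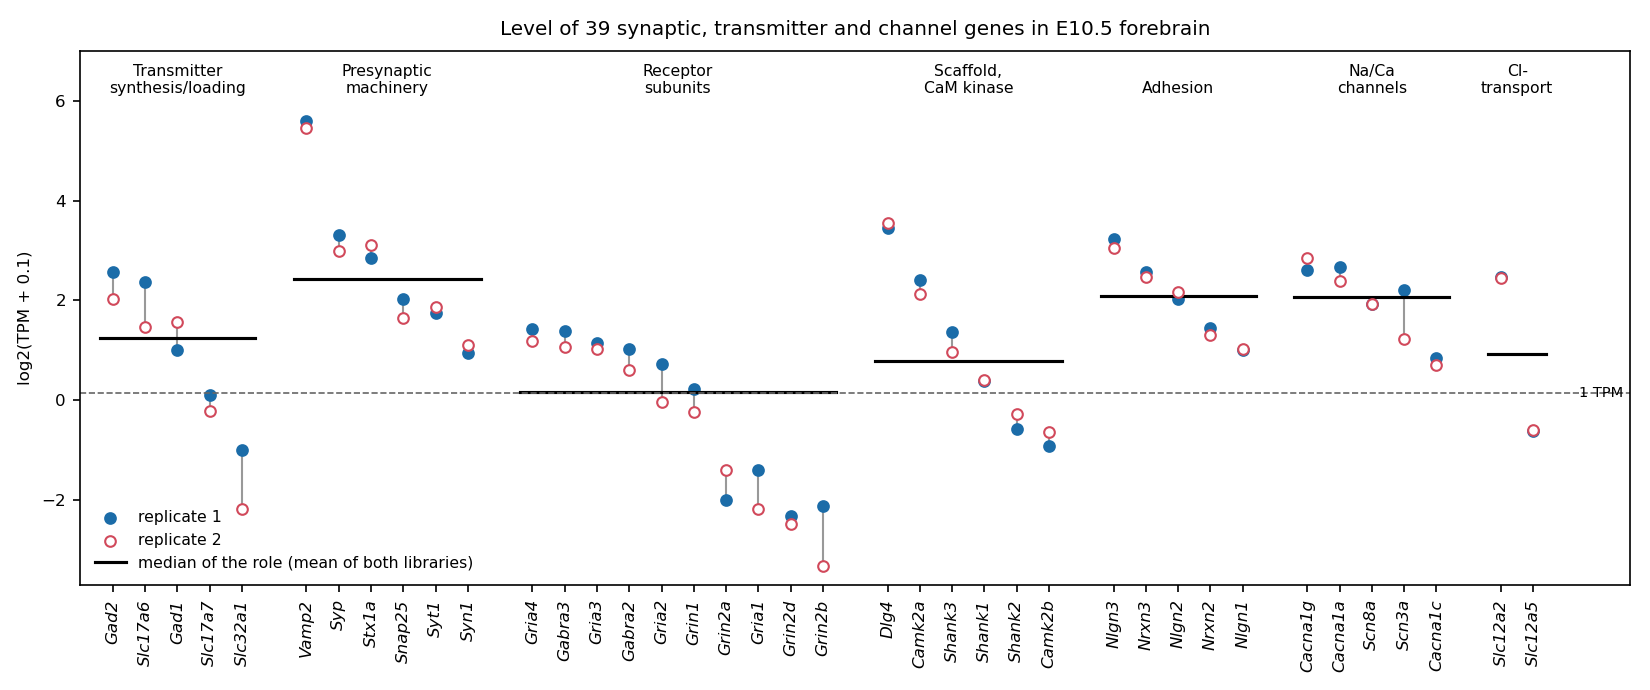
Level of each of the 39 members as log2(TPM + 0.1), grouped by role, with filled points for replicate 1 and open points for replicate 2. The black lines are role medians averaged over both libraries and the dashed line marks 1 TPM: every presynaptic, adhesion and channel gene lies above it, and 6 of 10 receptor subunits do not stay above it in both libraries.

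Median levels ordered the roles in nearly the same way in both pools. Among the members, presynaptic genes had the highest median, 5.64 ± 0.0778 TPM, followed by adhesion genes at 4.19 ± 0.318 TPM and channels at 4.12 ± 0.608 TPM. Adhesion genes and channels did not differ beyond their spread, and they swapped order between the libraries. Chloride transporters averaged 2.98 ± 0.0495 TPM, transmitter genes 2.29 ± 0.523 TPM and scaffold genes 1.69 ± 0.216 TPM. Transmitter and scaffold genes were nearly level in replicate 1, at 1.92 and 1.85 TPM, but not in replicate 2, at 2.66 and 1.54 TPM. Receptor subunits had the lowest median, 1.32 TPM in replicate 1 and 0.815 TPM in replicate 2. The order belongs to the chosen genes. In the lists of other genes of each role the medians were 12.1 TPM for chloride, 7.06 TPM for scaffold and 5.39 TPM for adhesion genes. They were 3.58 TPM for presynaptic, 1.92 TPM for transmitter, 0.495 TPM for channel and 0.303 TPM for receptor genes.

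Measured within each library on the log2(TPM + 0.1) scale, every role compared with the receptor subunits stood above them by more than the spread between the pools. The presynaptic median exceeded the receptor median by 2.27 ± 0.42, a 4.81-fold difference, with 1.97 in replicate 1 and 2.56 in replicate 2. Adhesion genes exceeded receptors by 1.92 ± 0.54, or 3.79-fold, and channels by 1.90 ± 0.22, or 3.72-fold. The scaffold genes were closer, at 0.61 ± 0.30 or 1.52-fold. Among members detected in both libraries these gaps were smaller, 1.29 for presynaptic, 0.94 for adhesion and 0.92 for channel genes, because that filter keeps the 4 highest receptor subunits. Presynaptic genes also exceeded scaffold genes by 1.66 ± 0.12, or 0.72 ± 0.23 among detected members. They exceeded transmitter genes by 1.20 ± 0.33, and among detected members the gap of 0.47 ± 0.55 was within its spread. Differences between single genes are on the same log2(TPM + 0.1) scale, and folds are taken from it, so they understate gaps to genes of low level.

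Among the transmitter genes, both GABA-synthesising enzymes and the early glutamate transporter were detected, and the other 2 vesicular transporters were not. Gad2, an enzyme that makes GABA from glutamate, stood at 5.82 TPM in replicate 1 and 4.01 TPM in replicate 2. Slc17a6, the vesicular glutamate transporter VGLUT2 that is used early in development, stood at 5.07 and 2.66 TPM. Gad1, the other GABA-synthesising enzyme, had 1.92 and 2.86 TPM, so Gad2 exceeded it by 1.01 ± 0.76 on the log2 scale, a gap that was 2.93-fold in replicate 1 and 1.39-fold in replicate 2. The loading transporters of more mature neurons were lower. Slc17a7, the VGLUT1 transporter of mature cortical neurons, had 0.98 and 0.76 TPM, and Slc17a6 exceeded it by 1.97 ± 0.41, or 3.92-fold. Slc32a1, the transporter that loads GABA and glycine into vesicles, had 0.40 and 0.12 TPM, from 30 and 8 counts. On the log2(TPM + 0.1) scale Slc17a6 exceeded Slc32a1 by 3.51 ± 0.20, which became 1.91 with a pseudocount of 1. Of 14 other transmitter genes 8 were detected, among them Glul, glutamine synthetase, at 113 and 109 TPM and the glutamate uptake transporter Slc1a3 at 24.5 and 23.0 TPM.

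The SNARE gene Vamp2, which encodes the vesicle fusion protein synaptobrevin on chromosome 11 (GRCm38, 69088490 to 69092384), was the highest of all 39 members. It stood at 48.7 TPM in replicate 1 and 43.8 TPM in replicate 2, by its mean above 83.3% of protein-coding genes. Its 2 plasma membrane partners in the fusion complex were much lower: Stx1a, encoding syntaxin 1A, had 7.16 and 8.56 TPM, and Snap25 had 4.01 and 3.03 TPM. Vamp2 therefore exceeded Snap25 by 3.69 ± 0.17 on the log2 scale, or 12.9-fold, and Stx1a by 2.55 ± 0.29, or 5.84-fold. In complete coding transcripts the gap to Snap25 was 3.60 ± 0.25, and that to Stx1a, 6.42 ± 3.11, was poorly fixed. The other vesicle proteins lay between 1.82 and 9.78 TPM. Syp, the vesicle membrane protein synaptophysin, had 9.78 and 7.84 TPM. Syt1, the calcium sensor of fast release, had 3.25 and 3.55 TPM, and Syn1, which tethers vesicles in the reserve pool, had 1.82 and 2.06 TPM. Of 22 other genes of the release machinery 17 were detected, and the 3 highest were genes that also serve membrane traffic in cells of every kind: the SNARE-recycling factor Napa at 144 and 141 TPM, the cellubrevin gene Vamp3 at 105 and 105 TPM, and Syt11, which does not bind calcium, at 102 and 104 TPM.

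Most of the Stx1a signal was assigned to a transcript that GENCODE M21 marks for nonsense-mediated decay, the pathway that destroys messages with an early stop codon. That transcript, Stx1a-204, took 95.3% of the gene's TPM in replicate 1 and 64.1% in replicate 2. The complete coding transcript Stx1a-201 was listed at 0.00 TPM in replicate 1 and 1.93 TPM in replicate 2. The 2 transcripts share 2084 bases. Stx1a-204 differs by beginning an exon 83 bases early, at chr5:135048911-135048993 on the plus strand of GRCm38, and by starting 78 bases later at its 5′ end. The stretch is shown because it is present in Stx1a-204 and absent from Stx1a-201, with the 83 added bases in capitals between 20 bases of exon on each side. The reading frame of Stx1a-204 meets a TGA stop 8 bases after the capitals end.
Stx1a-204: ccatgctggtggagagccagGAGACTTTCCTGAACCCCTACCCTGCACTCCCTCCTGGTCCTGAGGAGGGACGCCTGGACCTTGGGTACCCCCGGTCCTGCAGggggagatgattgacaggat
The deposited split is an estimate for 2 nearly equal transcripts, and reads over these bases were not counted here.

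Receptor subunits had the lowest median of the roles, and the 4 that were detected belong to AMPA and GABA-A receptors. Of the AMPA receptor subunits, which carry fast excitatory current, Gria4 had 2.59 and 2.19 TPM and Gria3 had 2.10 and 1.94 TPM. Gria2, whose edited form keeps AMPA receptors closed to calcium, had 1.56 and 0.88 TPM. Gria1 had 0.28 and 0.12 TPM, so that Gria2 exceeded it by 2.14 ± 0.02 on the log2 scale, or 4.41-fold. The gap between Gria2 and Gria1 was 1.08 with the posterior mean TPM, and in complete coding transcripts, those whose annotated reading frame lacks neither end, it was gone at -0.17 ± 0.87, since retained introns held 72.6% and 58.3% of Gria2 TPM. Gria2 in turn stood below Gria4 by a difference of -0.96 ± 0.37 and below Gria3 by a difference of -0.73 ± 0.46, both larger than the spread and wider in complete coding transcripts, at -3.27 and -2.03. By gene TPM the order Gria4, Gria3, Gria2, Gria1 was the same in both pools. The first 2 changed places by posterior mean TPM, with 2.79 and 2.39 for Gria3 against 2.55 and 2.16 for Gria4. Counts were 281 and 190 for Gria3 against 231 and 189 for Gria4.

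The NMDA receptor, which needs the obligatory subunit of Grin1 together with a Grin2 subunit, was near the limit of detection. Grin1 had 1.07 TPM in replicate 1 and 0.75 TPM in replicate 2. Its deposited posterior mean was 1.37 and 1.26 TPM, above the limit in both libraries. Neither library held more than 0.28 TPM, or 0.35 TPM by posterior mean, of any of its Grin2 partners among the members. Grin2a had 0.15 and 0.28 TPM from 8 and 7 counts, Grin2d had 0.10 and 0.08 TPM from 11 and 10 counts, and Grin2b had 0.13 and 0.00 TPM from 14 and 2 counts. Their order cannot be read at this depth: the difference of Grin2b from Grin2a was -1.02 ± 1.28 on the log2 scale, and that of Grin2d from Grin2b was 0.32 ± 0.74.

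The GABA-A receptor alpha subunits Gabra3 and Gabra2 were both detected. Gabra3 had 2.50 and 2.00 TPM and Gabra2 had 1.94 and 1.43 TPM, a small difference of 0.40 ± 0.08 on the log2 scale that had the same sign in each library. The tables list no coding transcript of Gabra2. Of 28 other receptor subunits 7 were detected. The highest were the metabotropic GABA-B subunit Gabbr1 at 6.78 and 7.08 TPM, the glycine receptor subunit Glrb at 6.07 and 5.87 TPM and the kainate receptor subunit Grik2 at 5.48 and 6.25 TPM.

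Scaffold and kinase genes spanned a wide range. Dlg4, encoding the postsynaptic scaffold PSD-95, was the second highest member by TPM, at 10.8 and 11.6 TPM, and Camk2a, the alpha subunit of the calmodulin kinase abundant at mature excitatory synapses, had 5.23 and 4.27 TPM. Its partner subunit Camk2b was at 0.43 and 0.54 TPM, lower than Camk2a by a difference of -3.05 ± 0.39 on the log2 scale. The deposited posterior mean for Camk2b was higher, 0.93 and 1.12 TPM, and its TPM lay below the lower bound of the deposited interval in both libraries, at 0.589 and 0.711 TPM. Among the Shank genes, whose proteins link receptor complexes to actin, Shank3 had 2.49 and 1.86 TPM, Shank1 had 1.20 and 1.22 TPM and Shank2 had 0.57 and 0.73 TPM. By gene total Shank3 exceeded Shank1 by 0.78 ± 0.30 and Shank2 by 1.60 ± 0.50. In complete coding transcripts it stood below both, by differences of -1.29 ± 0.15 from Shank1 and -0.49 ± 0.03 from Shank2, and without division by length it was level with Shank2, at 0.01. The TPM order of Shank3 and Shank1 was the opposite of their order in counts, 137 and 116 for Shank3 against 238 and 217 for Shank1. The leading Shank3 transcript is 719 bases long, and a short transcript gains more TPM per count. Dlg4 and Syp also changed order, with 292 and 262 counts for Dlg4 and 666 and 478 for Syp, although Dlg4 exceeded Syp by 0.35 ± 0.30 in TPM on the log2 scale. In complete coding transcripts the difference of Dlg4 from Syp was -2.39 ± 0.12.

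Of 15 other scaffold genes 10 were detected, among them the PSD-95 binding protein Dlgap4 at 108 and 99.9 TPM, Homer3 at 101 and 98.2 TPM and Dlg1, an epithelial and neuronal relative of Dlg4, at 27.1 and 27.7 TPM. Each of these stood above every member of the scaffold role in both libraries.

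All 5 adhesion genes were detected, on both sides of the future cleft. The neuroligins, postsynaptic partners of neurexin, fell in the order Nlgn3, Nlgn2, Nlgn1 in both pools. Nlgn3 had 9.32 TPM in replicate 1 and 8.16 TPM in replicate 2, although a processed transcript, Gm21986, overlaps it on the same strand over 3823 bases and took 140 and 138 counts of its own. Nlgn2, the neuroligin of inhibitory synapses, had 3.96 and 4.41 TPM, and Nlgn1, that of excitatory synapses, had 1.91 and 1.95 TPM. Nlgn3 exceeded Nlgn2 by 1.04 ± 0.24 on the log2 scale and Nlgn2 exceeded Nlgn1 by 1.08 ± 0.09 or 2.06-fold and 2.11-fold. In complete coding transcripts the gap between Nlgn3 and Nlgn2 was 0.30 ± 0.29. Of the presynaptic neurexins, Nrxn3 had 5.84 and 5.43 TPM and Nrxn2 had 2.61 and 2.37 TPM, a difference of Nrxn2 from Nrxn3 of -1.15 ± 0.02. In complete coding transcripts the neurexins were level, at 0.54 and 0.53 TPM for Nrxn2 and 0.61 and 0.46 TPM for Nrxn3. Of 15 other adhesion genes 13 were detected, led by the receptor phosphatase Ptprf at 86.1 and 85.3 TPM, Cadm1 at 84.0 and 84.1 TPM and Cntnap2 at 79.2 and 68.3 TPM.

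Every sodium and calcium channel gene was detected, in a narrow band below 8 TPM. Cacna1g, the pore subunit of a low-voltage T-type calcium channel, had 5.98 and 7.10 TPM, and Cacna1a, the P/Q-type subunit that later drives transmitter release, had 6.29 and 5.15 TPM. Both stood above the L-type subunit Cacna1c, at 1.71 and 1.54 TPM, by 1.94 ± 0.27 for Cacna1g and 1.75 ± 0.10 for Cacna1a on the log2 scale. The gap of Cacna1g to Cacna1c was 1.93 ± 0.12 in complete coding transcripts, whereas that of Cacna1a was 0.18 ± 0.22, and 0.56 by counts with no division by length. Of the sodium channels, Scn8a had 3.73 and 3.69 TPM, and the embryonic type Scn3a had 4.55 TPM in replicate 1 and 2.24 TPM in replicate 2. The pair changed order between the pools, with a difference of Scn3a from Scn8a of -0.21 ± 0.69 by gene total and -0.93 ± 0.51 in complete coding transcripts. On the latter measure Scn8a rests mostly on Scn8a-202, only 1072 bases long, with 2.36 and 2.45 TPM. The 11293-base Scn8a-201 had 1.31 and 1.17 TPM, against 2.49 and 1.45 TPM for complete coding Scn3a. The order in complete coding transcripts thus depends on the short form. Of 29 other channel genes 9 were detected, and the highest were auxiliary subunits: Cacnb3 at 14.7 and 16.0 TPM, Cacnb1 at 4.44 and 5.07 TPM and Scn2b at 3.04 and 3.84 TPM.

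The chloride transporters stood far apart, by nearly the same amount in both pools by gene total. Slc12a2, the importer NKCC1 that keeps chloride high in immature neurons, had 5.48 TPM in replicate 1 and 5.33 TPM in replicate 2. Slc12a5, the neuronal exporter KCC2 that lowers chloride as neurons mature, had 0.55 and 0.56 TPM. The importer exceeded the exporter by 3.07 ± 0.04 on the log2 scale, or 8.58-fold and 8.23-fold in the 2 libraries. In complete coding transcripts the gap was 3.77 ± 0.38, and by counts with no division by length 3.69. It was 2.59 with the posterior mean TPM and 2.04 with a pseudocount of 1. Slc12a2 is also used by many cells other than neurons, and its share in neurons was not tested. Of 9 other chloride genes 7 were detected, led by the widely expressed exporter Slc12a7 at 43.9 and 44.8 TPM and the regulatory kinases Wnk1 at 26.9 and 28.2 TPM and Stk39 at 25.6 and 25.2 TPM.

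The pools differed mildly in the members, and mostly in the same direction. Ratios were taken of replicate 1 over replicate 2 from counts scaled by library size, with 95% exact binomial intervals that cover counting error alone. A gap of over 2-fold was seen in 0 of the 32 members that averaged at least 50 counts, against 0.347% of all such genes higher in replicate 1 and 0.238% higher in replicate 2. At 1.5-fold there were 3, all higher in replicate 1, where the background was 2.02% for that direction and 0.91% for the other. These were Slc17a6, with 592 and 280 counts and a ratio of 1.92 (interval 1.67 to 2.23), Scn3a, with 609 and 324 counts and a ratio of 1.71 (1.49 to 1.96), and Gria2, with 154 and 82 counts and a ratio of 1.70 (1.30 to 2.26). By TPM the ratio of Scn3a was 2.03.

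The interval lay above 1 in 11 members, below 1 in 1 and held 1 in 20, where 17% of all genes of that count had an interval above 1 and 17.5% below. Beside the 3 above, the members higher in replicate 1 were Gad2 at 1.39-fold, Gabra2 at 1.36-fold, Gria3 at 1.34-fold, Snap25 at 1.31-fold, Nlgn3 and Syp at 1.27-fold, Cacna1a at 1.22-fold and Vamp2 at 1.08-fold. Stx1a, at 0.862-fold (0.749 to 0.991), was the member with its interval below 1. For Cacna1g, Dlg4 and Slc12a5 the count ratio and the TPM ratio lay on opposite sides of 1, so no direction is given for them.

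Over the 37 members that averaged at least 10 counts, the median count ratio was 1.09-fold, and 27 were higher in replicate 1. These 27 include Cacna1g, Dlg4 and Slc12a5, whose TPM ratios lie on the other side of 1. Among all genes that averaged at least 10 counts the median was 1.00-fold and 50.3% were higher in replicate 1. By role, the median ratio was highest for the transmitter genes, 1.39-fold, and the receptor subunits, 1.25-fold, while presynaptic, scaffold and adhesion genes were at 0.992-fold, 1.01-fold and 1.01-fold. The neuron markers moved the same way: 12 of 12 were higher in replicate 1, with a median of 1.30-fold and a summed level of 523 TPM in replicate 1 and 406 TPM in replicate 2. Of the 5 erythroid markers, all were higher in replicate 1, with a median of 1.34-fold. Progenitor markers had a median ratio of 1.02 and endothelial markers 0.964. The part of these marker differences in the members' ratios was not tested.

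**Figure D2:**
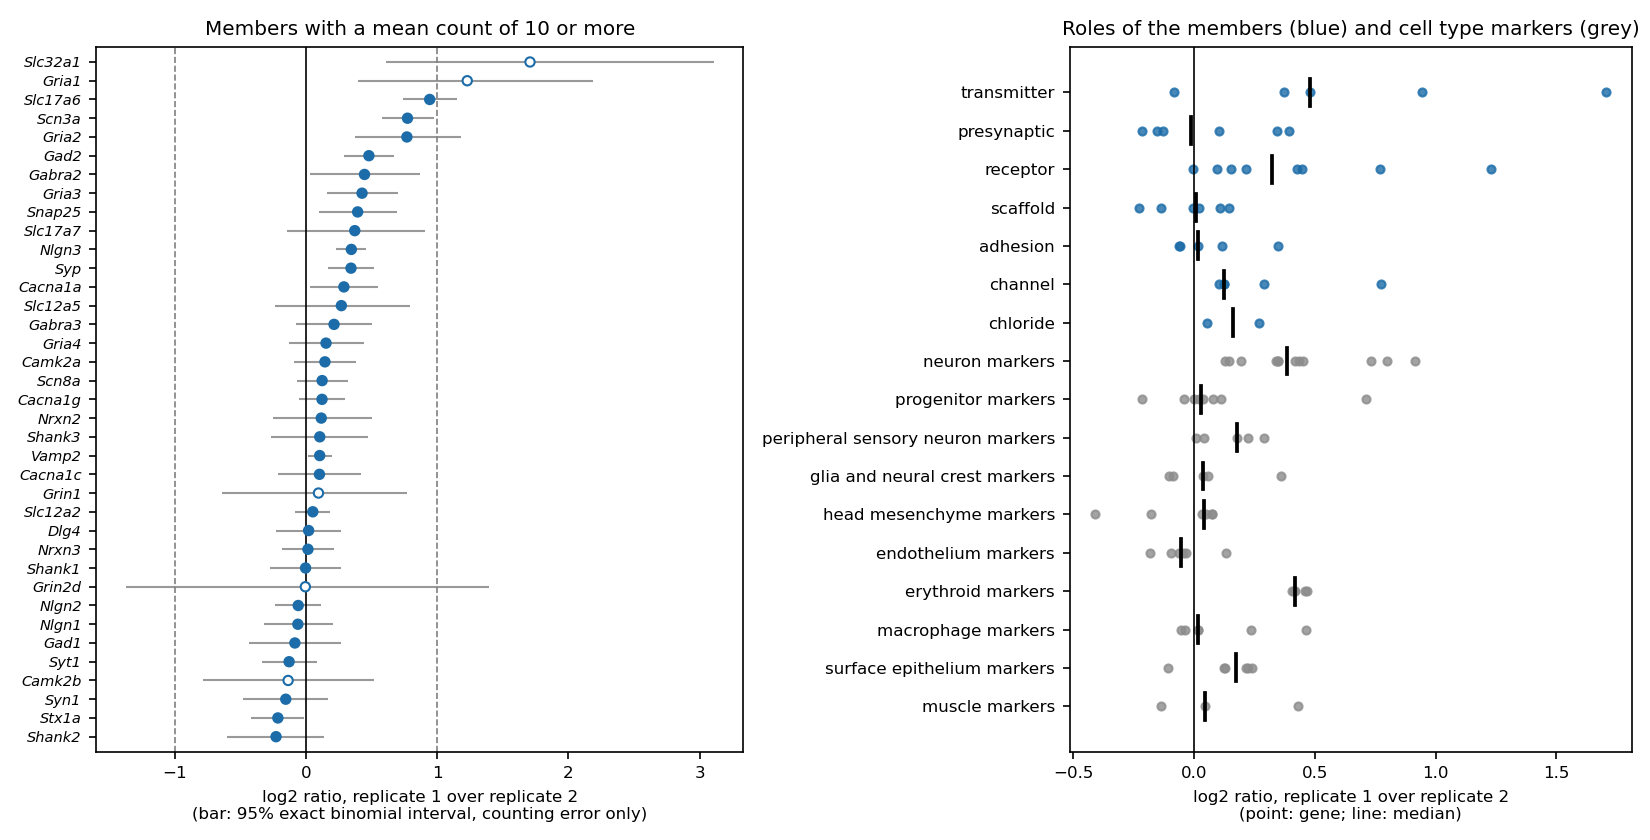
Ratio of replicate 1 over replicate 2 on a log2 scale. On the left are the 37 members that averaged at least 10 counts, filled from 50 counts on, with 95% exact binomial intervals, and on the right the genes of each role and of the marker lists with their medians as lines. Slc17a6, Scn3a and Gria2 lie farthest to the right among the filled points, and all 12 neuron markers lie right of 0.

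The members with the fewest counts gave wider ratios. Slc32a1 had a ratio of 3.26 (1.53 to 8.61), Gria1 of 2.34 (1.31 to 4.55) and Grin2b of 5.28 (1.46 to 57.7), all from under 50 mean counts and all higher in replicate 1. Camk2b, also under that count, had a ratio of 0.910 (0.579 to 1.43). The intervals of Camk2b, Grin1, Grin2a and Grin2d, 4 of the 7 members under that count, held 1.

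Many detected members had much of their TPM in transcripts with no complete reading frame. The transcript tables were read with the transcript types of GENCODE M21, and a coding transcript was called complete where the annotation marks neither end of its reading frame as missing. In the 28 detected members the median share of a gene's TPM in complete coding transcripts was 65.0 ± 2.12%, against 95.9 ± 0.0636% in 12315 detected protein-coding genes. With incomplete coding transcripts included it was 84.1 ± 0.661%, against 98.1 ± 0.0354%. Complete coding transcripts made up under 50% of TPM in both libraries in 9 of the 28 detected members, where 11.1% of detected protein-coding genes did so. The 9 were Stx1a, Gabra2, Dlg4, Shank3, Nrxn2, Nrxn3, Cacna1a, Cacna1c and Cacna1g. By counts, with no division by length, the complete coding share was 90.1% and 86.0% in Cacna1g and 71.3% and 77.5% in Cacna1c. In Shank3 it was 52.3% and 69.6%, and no other of the 9 passed 50% in both libraries. Members range from 1 to 23 listed transcripts, and the number of transcripts per gene was not matched between members and protein-coding genes.

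**Figure D3:**
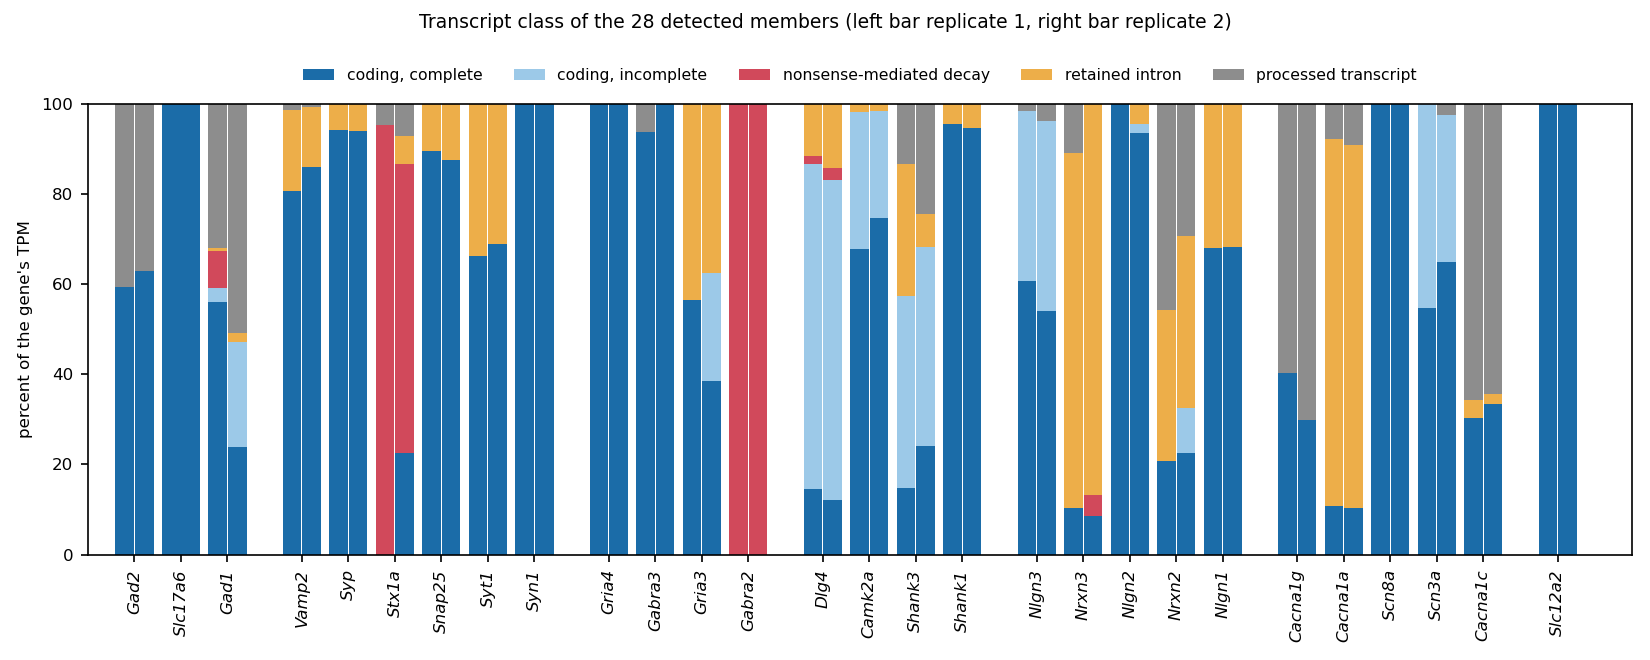
Percent of each detected member's TPM by transcript class, with replicate 1 as the left bar and replicate 2 as the right bar of each gene, ordered by role. Gabra2 and Stx1a are mostly in the decay class, Cacna1a and Nrxn3 mostly in retained introns, and Slc17a6, Syn1, Gria4, Scn8a and Slc12a2 wholly in complete coding transcripts.

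Of the 25 detected members with several listed transcripts, 22 had the same leading transcript in both libraries, and 3 more have a single listed transcript. The share of all detected genes with a shared lead was not counted. Of the leads that both libraries shared, those of single-transcript genes included, 17 were coding and complete and 19 were coding. A shared lead did not mean a stable split: Stx1a-204 led in both libraries, and the complete coding share of Stx1a was 0.00% in replicate 1 and 22.6% in replicate 2. The complete coding forms led in Vamp2 (Vamp2-201, 55.9% and 59.5% of TPM), Syp (Syp-201, 94.2% and 94.0%), Snap25 (Snap25-201, 73.7% and 69.8%), Syt1 (Syt1-201, 66.3% and 59.9%) and Syn1 (Syn1-202, 100% and 57.6%). Among receptors and scaffolds they led in Gria4 (Gria4-203, 68.4% and 60.9%), Gria3 (Gria3-201, 45.9% and 38.4%), Gabra3 (Gabra3-201, 88.9% and 100%), Shank1 (Shank1-203, 95.4% and 94.5%) and Camk2a (Camk2a-201, 38.8% and 46.9%). Elsewhere they led in Gad2 (Gad2-201, 59.5% and 63.0%), Nlgn2 (Nlgn2-201, 67.6% and 59.5%), Nlgn1 (Nlgn1-203, 48.6% and 47.3%), Scn3a (Scn3a-202, 45.5% and 51.3%) and Scn8a (Scn8a-202, 63.4% and 66.4%). The leading Scn8a transcript is 1072 bases long, far shorter than a message for the whole channel, although the annotation marks neither end as missing. Slc17a6 and Slc12a2 each have a single listed transcript, which is coding and complete. Gabra2 also has a single listed transcript, Gabra2-201, so its decay class is set by the annotation and not by a choice between forms. GENCODE M21 holds a coding Gabra2 transcript that is not among the rows of the tables, and the counts of complete coding transcripts take Gabra2 as 0 for that reason.

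In Dlg4 and Shank3 the lead was a short incomplete coding transcript. Dlg4-208, 845 bases long, held 46.7% and 47.1% of Dlg4 TPM, and complete coding Dlg4 transcripts held 14.6% and 12.2%, or 1.58 and 1.41 TPM. By counts, which do not divide by length, the complete Dlg4 share was 48.0% and 42.4%. Shank3-207, 719 bases long, held 42.7% and 44.0% of Shank3 TPM. The leading transcript differed between the libraries in Gad1 (Gad1-201 in replicate 1 and Gad1-206, a processed transcript, in replicate 2), in Nlgn3 (Nlgn3-201 and Nlgn3-203) and in Cacna1a (Cacna1a-206 and Cacna1a-207, both retained introns).

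Besides Stx1a-204 and Gabra2-201, 13 other noncoding transcripts each held over 20% of a detected member's TPM in both libraries. How many transcripts of other detected genes pass this limit was not counted. Retained introns were the class in Nrxn3-204 (63.4% and 75.8%), Gria3-207 (35.2% and 32.0%), Syt1-204 (33.8% and 31.1%), Nlgn1-204 (32.1% and 31.9%), Nrxn2-210 (28.9% and 26.4%), Cacna1a-206 (24.4% and 21.6%) and Cacna1a-203 (20.1% and 20.1%). Processed transcripts, which lack an annotated reading frame, were the class in Nrxn2-213 (45.8% and 29.4%), Gad2-202 (40.6% and 37.0%), Cacna1c-218 (35.8% and 33.7%), Gad1-206 (32.0% and 50.8%), Cacna1g-215 (29.6% and 34.9%) and Cacna1g-213 (24.7% and 28.3%). Several are short, such as Cacna1g-213 with 434 bases and 13.7 and 16.8 counts, so that few counts gave a large share of TPM. The libraries are of total RNA, and the tables do not separate unspliced precursor from a mature message that keeps an intron.

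Restricted to complete coding transcripts, 19 of the 39 members reached 1 TPM in both libraries, where 55.2% of protein-coding genes did, or 96.2% of those detected by gene total. By role these were 5 of 6 presynaptic genes, 3 of 6 scaffold genes, 3 of 5 adhesion genes, 3 of 5 channels, 2 of 5 transmitter genes, 2 of 10 receptor subunits and 1 of 2 chloride transporters. Vamp2 stayed far above the rest at 39.3 and 37.6 TPM. Nrxn3 had 0.61 and 0.46 TPM in complete coding transcripts and Cacna1a 0.68 and 0.53 TPM, both below the detection limit that their gene totals passed. The gap between presynaptic genes and receptor subunits was wider on this measure, at 3.36 on the log2 scale.

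**Figure D4:**
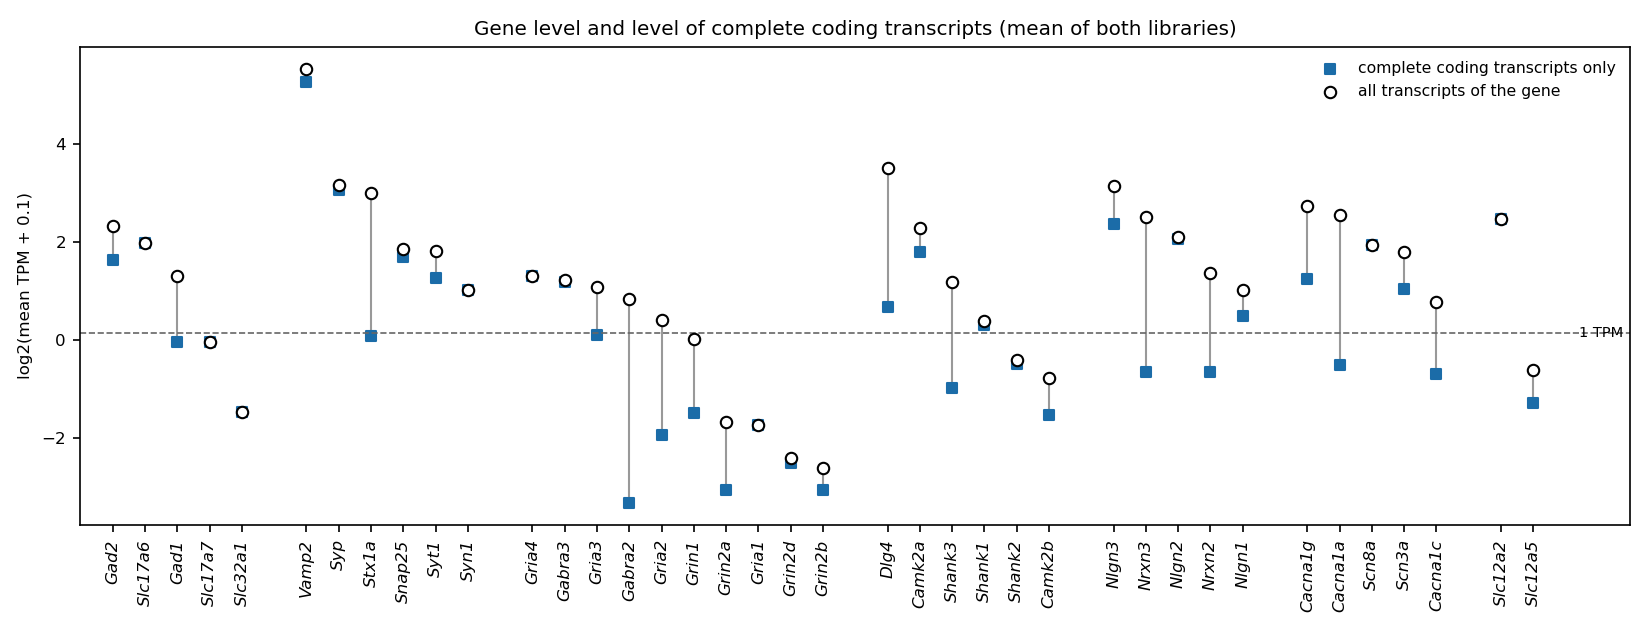
Level of each member on a log2(mean TPM + 0.1) scale, from complete coding transcripts alone (squares) and from all transcripts of the gene (circles), averaged over both libraries. The longest drops are in Gabra2, which has no coding transcript in the tables, and in Stx1a, Nrxn3 and Cacna1a, while in Slc17a6, Syn1, Gria4, Scn8a and Slc12a2 the symbols coincide or nearly so.

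Many neuronal genes carry a binding element for REST, a repressor that keeps them low in cells that are not neurons, and promoters were searched for its letters. Of the 39 members, 24 had at least 1 RefSeq promoter window (GRCm38.p6, 250 bases before to 50 after the start), 36 windows in all. The element was written as a left arm TTCAGCACC and a right arm GGACAGNGC, with 2 free bases between them, and both strands were read. The exact left arm was found in windows of 2 members, Nlgn1 and Syn1, and in 0.371% of all 32851 windows. The exact right arm was found in 3, Gad2, Gria2 and Camk2b, and in 1.91% of all windows. Both arms together with at most 2 mismatches were found in Gria2 and Syn1, each with 1 mismatch, and in 0.0578% of all windows. Allowing up to 4 mismatches, a limit added after the data were seen, added Gad2, with 3, at a background of 1.5% of windows. Counted by gene, the left arm was found in 0.433% and the right arm in 2.18% of 27025 genes with a window. Up to 2 mismatches were met by 0.0703% of these genes and up to 4 by 1.72%. The stretch around each match is given 5′ to 3′ on the strand of its gene, with the 20 letters of the match in capitals. The Gria2 match reads on the opposite strand, so its capitals are the reverse complement of the element. They lie at chr3:80802949-80803048 and chrX:20921091-20921168, both on the minus strand, and at chr2:22622121-22622220 on the plus strand.
Gria2: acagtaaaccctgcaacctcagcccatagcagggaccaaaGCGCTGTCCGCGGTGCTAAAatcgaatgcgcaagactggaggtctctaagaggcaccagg
Syn1: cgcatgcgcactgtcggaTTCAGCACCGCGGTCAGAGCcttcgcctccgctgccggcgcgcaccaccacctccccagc
Gad2: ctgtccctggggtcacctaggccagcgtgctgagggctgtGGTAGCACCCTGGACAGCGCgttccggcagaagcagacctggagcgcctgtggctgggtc
Counted from the start of transcription, the matches run from -173 to -154 in Gria2, from -232 to -213 in Syn1 and from -166 to -147 in Gad2. A match describes letters and is not evidence of binding, and no binding data were used.

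The genes that matched with 1 mismatch stood at 1.56 and 0.88 TPM for Gria2 and 1.82 and 2.06 TPM for Syn1. Gad2, which matched only with 3 mismatches, stood at 5.82 and 4.01 TPM. Rest itself stood at 18.9 TPM in replicate 1 and 18.5 TPM in replicate 2, above 38 of the 39 members. Most protein-coding genes lay below it too: the Dlg4 mean of 11.2 TPM was already above 63.0% of them. Of 17 repressor and splicing regulators 16 were detected. The highest were Ptbp1, which represses neuronal exons in progenitors, at 320 and 316 TPM, and the histone deacetylases Hdac2 at 262 and 269 TPM and Hdac1 at 249 and 274 TPM. Their part in the levels of the members was not tested.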

How the data were processed

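Assembly mm10 and annotation M4 are named in the authors' deposited notes, which list alignments to the transcriptome. Not given in the sources used here are aligner, quantifier, read strand and priming. Per the file headers, the authors deposited, per gene and transcript, expected counts (estimated reads, not normalized), TPM and FPKM (both divided by length), posterior mean TPM with interval bounds, and each transcript's percent of its gene. Expected counts were rounded for library scaling by TMM in edgeR 4.0.16 (R 4.3.3) and for DESeq2 1.42.0 size factors, and the common biological variation was 6.59% over 16637 genes. No count test was run.

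The 39 members, their roles, pairs and comparison lists were chosen with earlier results of these data known. Named are all members, genes of the fixed pairs, the 3 highest genes of each related list, leading transcripts, and noncoding transcripts over 20% in both libraries. A gene that the rule names is not reported here. The Stx1a sequence, the REST matches and Rest were shown after their values were seen. Ratios used counts plus 0.5 (intervals without it), and levels log2(TPM + 0.1). Coordinates and transcript types came from GENCODE M21 (GRCm38), promoters from RefSeq. Without strand information, reads of overlapping antisense genes cannot be told apart from those of Syp, Grin1, Shank1, Shank3, Nrxn2, Nlgn1, Cacna1a and Syn1. The ratio step was tested on simulated data. Python 3.11.15, pandas 2.3.3, numpy 2.4.6, scipy 1.17.1 and matplotlib 3.10.9 were used. Alternatives are in the closing section.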

Additional observations from a re-analysis of the deposited data

How the results depend on the processing

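No paired analysis was possible because the series has a single group. Detection of members ranged from 19 of 39 with complete coding transcripts only to 33 at a limit of 0.5 TPM, around 28, with 28 and 30 when a single library was used. Role contrasts kept their sign under all alternatives run. In log2 units, presynaptic over receptor was 1.64 with a pseudocount of 1, 3.11 with means, 1.29 for detected members and 3.36 for complete coding transcripts, and 1.97 to 2.56 with a single library. Scaffold over receptor was 1.43 by CPM, 1.40 with means and 1.81 for complete coding transcripts, and 0.40 to 0.82 with a single library. Adhesion over receptor was 1.34 with a pseudocount of 1, 2.66 by CPM and 0.94 for detected members, and 1.54 to 2.30 with a single library. Channel over receptor was 1.32 with a pseudocount of 1, 1.63 with the posterior mean, 2.61 by CPM, 2.32 with means, 0.92 for detected members and 2.87 for complete coding transcripts, and 1.74 to 2.05 with a single library. Presynaptic over scaffold was 1.27 with a pseudocount of 1, 1.51 with the posterior mean, 1.16 by CPM and 0.72 for detected members, and 1.57 to 1.74 with a single library. Presynaptic over transmitter was 1.95 with means and 0.47 ± 0.55 for detected members, and 0.96 to 1.44 with a single library.

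Members apart between the libraries numbered 3 with no filter on counts (Slc32a1, Gria1 and Grin2b) and 3 at 1.5-fold, against 0. The median ratio was 0.12 on the log2 scale and 0.15 by TPM. The coding share of 84.1% was 76.0% with the posterior mean, 92.5% by counts and 65.0% for complete transcripts. Of the 23 gene pairs, 20 moved by over 1.5-fold under some alternative: 16 with complete coding transcripts, 10 by CPM, which has no division by length, 7 with a pseudocount of 1, 4 with the posterior mean and none with FPKM. By CPM, Shank3 over Shank1 reversed to -0.83 and Dlg4 over Syp to -1.02. With complete coding transcripts, 6 changed sign. Beyond their spread were Shank3 over Shank1 at -1.29 ± 0.15, Shank3 over Shank2 at -0.49 ± 0.03 and Dlg4 over Syp at -2.39 ± 0.12. Within it were Gria2 over Gria1 at -0.17 ± 0.87, Nrxn2 over Nrxn3 at 0.010 ± 0.23 and Stx1a over Snap25 at -2.82 ± 3.37. Alternatives on complete transcripts and on up to 4 mismatches were added after seeing the data. Below 50 counts, ratios are limited by depth.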
